A study of Mus musculus with 24 samples.

Results

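The main olfactory epithelium detoxifies and clears inhaled compounds with enzymes of its sustentacular (support) cells and Bowman's glands, and 58 genes of these enzyme families are described here in *WT* and *iRhom2-/-* mice. They were selected on their symbols (Cyp1 to Cyp4, Ugt1, Ugt2, Gsta, Gstm, Gstp, Gstt or Fmo, followed by a letter or digit) and on a mean of at least 1 CPM (a gene's counts scaled to a common library total) over all 24 libraries, and of 142 such symbols in a table of 45706 genes 84 fell below that level. The rule is literal, so it also took 5 cytochromes P450 of other families (*Cyp20a1*, *Cyp26b1*, *Cyp27a1*, *Cyp39a1* and *Cyp46a1*) and *Fmod*, which encodes fibromodulin, a collagen-binding matrix protein and not an enzyme. That leaves 57 enzymes, namely 32 cytochromes P450, 4 flavin-containing monooxygenases, 6 UDP-glucuronosyltransferases and 15 glutathione S-transferases. Just inside the limit were *Cyp2c23* at 1.32 CPM and *Gstp3* at 1.92 CPM, and just outside it were *Cyp19a1* at 0.93 CPM and *Cyp4x1* at 0.882 CPM.

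Xenobiotic metabolism runs in steps. Cytochromes P450 and flavin-containing monooxygenases add or expose a reactive oxygen group, and UDP-glucuronosyltransferases and glutathione S-transferases then attach glucuronic acid or glutathione, which makes the product water-soluble. In the nose the same reactions inactivate odorants and protect the sensory neurons, and they can also turn some inhaled chemicals into toxic products.

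Bulk RNAseq was made from the dissected epithelium of untreated mice of mixed strain background, with 12 *WT* and 12 *iRhom2-/-* mice. The *iRhom2-/-* mice carry a null allele of *Rhbdf2* that is not limited to a cell type, with LacZ under the gene's own promoter, on a background mixed from 129Sv and C57BL/6. There were 3 mice per genotype at 8 weeks, 3 at 10 weeks, and 6 whose columns in the table do not say whether they were 5 or 30 weeks old, so those 6 are kept as 1 group per genotype. Female mice were replicate 3 of *WT* at 8 weeks and replicate 3 of both genotypes at 10 weeks, and all others were labelled male. Each set of mice (8 weeks, 10 weeks, and 5 or 30 weeks) had its own core submission in the labels. A difference between sets therefore cannot be told apart from one between submissions. Libraries held 25333822 to 48660394 counts, and 3 counts, the limit that a count of 0 allows, corresponded to at most 0.118 CPM, which covers counting error only.

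*Rhbdf2*, the targeted gene, was at 19.3 to 24.95 CPM in the *WT* mice and at 7.19 to 13.4 CPM in the *iRhom2-/-* mice, without overlap (log2 fold change, log2FC, -1.08 ± 0.087 SE, with an adjusted p of 9.8e-08 by edgeR). Of the markers of sustentacular cells, 8 of 8 were detected, and their summed level was 5819 ± 781 CPM in *WT* (SD, n = 12) and 6014 ± 897 CPM in *iRhom2-/-* mice (SD, n = 12). The 6 markers of Bowman's glands summed to 6973 ± 2875 CPM in *WT* (SD, n = 12) and 6530 ± 2912 CPM in *iRhom2-/-* mice (SD, n = 12), and none of these 14 markers passed an adjusted p of 0.1 in any comparison. The 9 markers of mature olfactory sensory neurons were also present at 10443 to 20205 CPM in sum. In *iRhom2-/-* replicate 2 of 10 weeks 13.6% of all counts fell on 1 gene, the secretory gene *Bpifb9b*, and in *WT* replicate 1 of 8 weeks 5.53%.

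The genes sit in clusters of near relatives, and 42 of the 57 enzymes lie in 12 clusters with gaps of at most 600 kb. The largest by expression, on chromosome 7 of GRCm38 from 25802475 to 27133660, holds *Cyp2s1*, *Cyp2b10*, *Cyp2a4*, *Cyp2g1*, *Cyp2a5* and *Cyp2f2* and gave 62.6% of the CPM of all 58 genes. Within it, *Cyp2a5* (26835305 to 26843548, plus strand), a coumarin hydroxylase that also activates nasal toxicants, and *Cyp2a4* (26307169 to 26315088, plus strand), a steroid hydroxylase, encode proteins of 494 residues each that differ at 12 of them. Their promoters, from RefSeq for GRCm38.p6 and covering 250 bases before to 50 bases after the start, are nearly identical too. They are shown because these copies were measured at very different levels, with the bases that differ in capitals:
Cyp2a4, chr7:26306942-26307241, plus strand: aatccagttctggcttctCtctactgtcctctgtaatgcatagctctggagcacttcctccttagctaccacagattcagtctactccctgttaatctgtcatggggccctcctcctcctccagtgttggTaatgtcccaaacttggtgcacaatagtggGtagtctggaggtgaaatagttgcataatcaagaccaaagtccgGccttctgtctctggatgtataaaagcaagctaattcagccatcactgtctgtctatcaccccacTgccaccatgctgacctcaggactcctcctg
Cyp2a5, chr7:26835089-26835388, plus strand: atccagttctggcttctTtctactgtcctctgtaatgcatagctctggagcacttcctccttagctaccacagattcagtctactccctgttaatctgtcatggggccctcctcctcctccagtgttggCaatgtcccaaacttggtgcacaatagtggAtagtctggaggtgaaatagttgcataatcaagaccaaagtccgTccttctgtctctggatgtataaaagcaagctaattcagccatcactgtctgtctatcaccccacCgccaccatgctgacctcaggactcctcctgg

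Aligned, the promoters overlap by 299 bases, of which 5 differ, with no gap. Per kilobase of exon, *Cyp2a5* reached 5054 CPM (3012 to 8612 over the 24 mice), the sixth highest value of all genes, and *Cyp2a4* reached 16.5 CPM (1.6 to 49.9). The coding sequences differ at 23 of 1482 bases, and 5.03% of stretches of 150 bases, the read length, are identical. A single read from such a stretch fits both genes. Reads were paired, so a mate from outside the stretch can tell the genes apart, and 5.03% is not the share of ambiguous pairs. RSEM divides pairs that fit both genes by estimate, so the level of *Cyp2a4* is uncertain. The size of this effect was not tested. Also close are the proteins of *Ugt1a6a* and *Ugt1a6b* (97.2% identical residues) and of *Gstp1* and *Gstp2* (97.1%). Identical stretches of bases were not counted for these pairs, so how far the same limit holds for them was not tested. *Ugt2a1* and *Ugt2a2* share exons, as do the *Ugt1a* genes.

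The level of the group rested on few genes. *Cyp2a5* alone gave 40.0% of the summed CPM and the 4 highest genes 78.4%. After *Cyp2a5*, per kilobase of exon, came *Ugt2a1* (1643 CPM), the olfactory glucuronosyltransferase that conjugates odorants, *Cyp2g1* (1632 CPM), a P450 typical of olfactory mucosa, and *Cyp2f2* (1149 CPM), which oxidizes naphthalene. The ranges of *Ugt2a1* and *Cyp2g1* over mice overlapped widely. The next 6 were the mu-class transferase *Gstm1* (849 CPM), *Cyp1a2* (329 CPM), which oxidizes aromatic amines, *Fmo6* (194 CPM), *Gstm2* (181 CPM), *Ugt2a2* (162 CPM) and *Gstm5* (139 CPM).

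**Figure D1:**
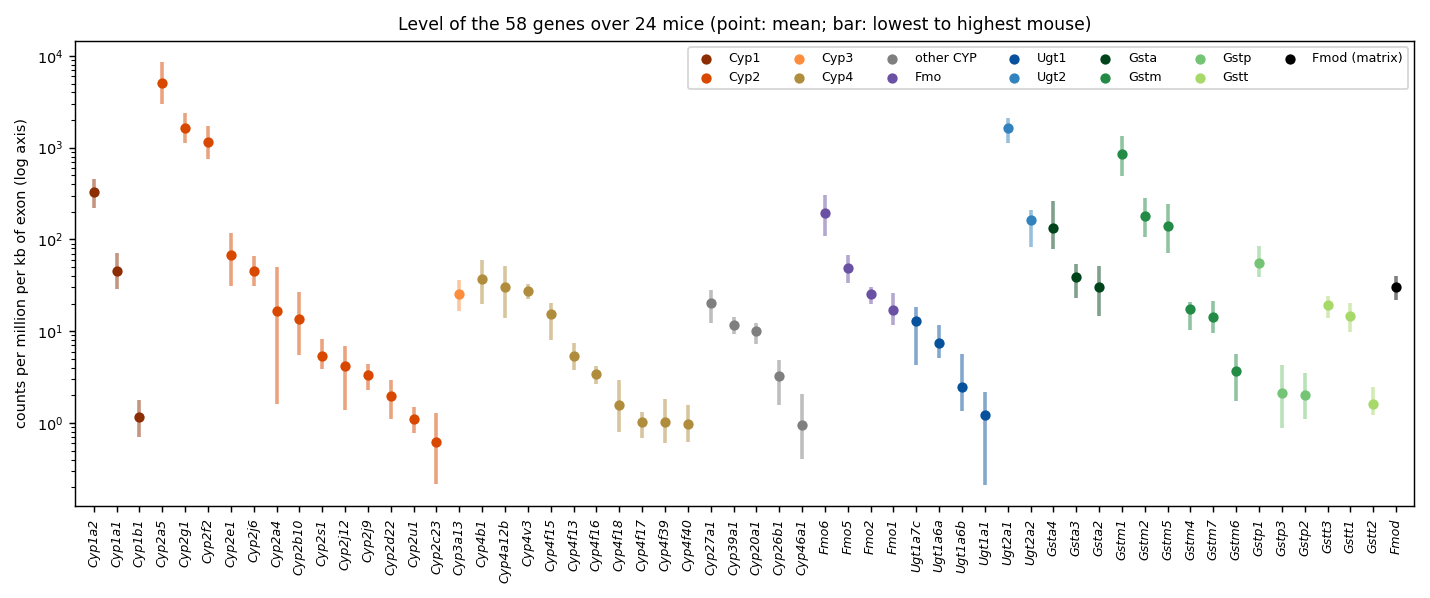
Level of each of the 58 genes in CPM per kilobase of exon on a log axis, ordered by family; points are means over 24 mice and bars run from the lowest to the highest mouse. *Cyp2a5* stands at 5054 and *Cyp2c23* at 0.614.

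Cytochromes P450 made up 69.0% of the summed CPM, UDP-glucuronosyltransferases 18.1%, glutathione S-transferases 9.03% and flavin-containing monooxygenases 3.47%. In the families with smaller shares, the member with the highest CPM was *Cyp3a13* (74.4 CPM), *Cyp4v3* (104 CPM), a fatty acid hydroxylase, *Ugt1a7c* (54.7 CPM), *Gsta3* (171 CPM), *Gstp1* (86.8 CPM) and *Gstt3* (73.9 CPM). Within the *WT* groups the coefficient of variation over mice, averaged over the 3 age groups, had a median of 13.5% and ran from 3.51% for *Cyp20a1* to 45% for *Ugt1a1*, the bilirubin-conjugating enzyme. *Cyp2a4* (40.7%) and *Gstp3* (38.4%) followed.

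Over all 24 mice, with the set of mice as a term, none of the 58 genes passed an adjusted p of 0.1, neither higher in *iRhom2-/-* mice (0 of 58, against 1.12% of the 20763 genes tested) nor lower (0 of 58, against 0.852%). DESeq2 also called 0 of them, against 3.96% of all genes, with 3 at an unadjusted p under 0.05 (5.17%, against 13.3%). At an unadjusted p under 0.05 there were 2 genes (3.45%), against 12.4% of all genes, and they were *Cyp2u1* and *Cyp39a1*. The median log2FC of the 58 genes was -0.058, with 19 of 58 above 0, beside a median of -0.0011 over all genes, 10316 of 20763 being above 0. All 58 genes passed the filter on low counts in every comparison.

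The intervals bound how large an average difference over all mice could have gone unseen. They do not bound differences in single sets or ages, since differences in opposite directions can cancel in the average. This holds also within the set whose columns carry no age. For 48 of the 58 genes the 95% interval of the log2FC lay within 0.5 of 0 on either side, and for 57 within 1, against 64.0% and 84.3% of all genes tested. *Cyp2a5* was at 7020, 9107 and 19543 CPM in *WT* mice (lowest, median and highest, n = 12) and at 5901, 9619 and 15229 CPM in *iRhom2-/-* mice (n = 12). The groups overlapped almost throughout, and the log2FC was -0.04 (95% interval -0.23 to 0.16). *Ugt2a1* was at 3171, 4409 and 5592 CPM in *WT* and 2748, 4144 and 5176 CPM in *iRhom2-/-* mice, again with wide overlap, and its log2FC was -0.08 (95% interval -0.30 to 0.14).

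For *Cyp2g1* the log2FC over 24 mice was 0.02 (95% interval -0.12 to 0.17) and for *Cyp2f2* -0.01 (95% interval -0.19 to 0.18). The conjugating enzyme *Gstm1* was at 0.09 (95% interval -0.07 to 0.26) and *Cyp1a2* at 0.04 (95% interval -0.15 to 0.23). The exception to the bound of 1 was *Cyp2a4*, with a log2FC of -0.32 and an interval from -1.17 to 0.54.

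**Figure D2:**
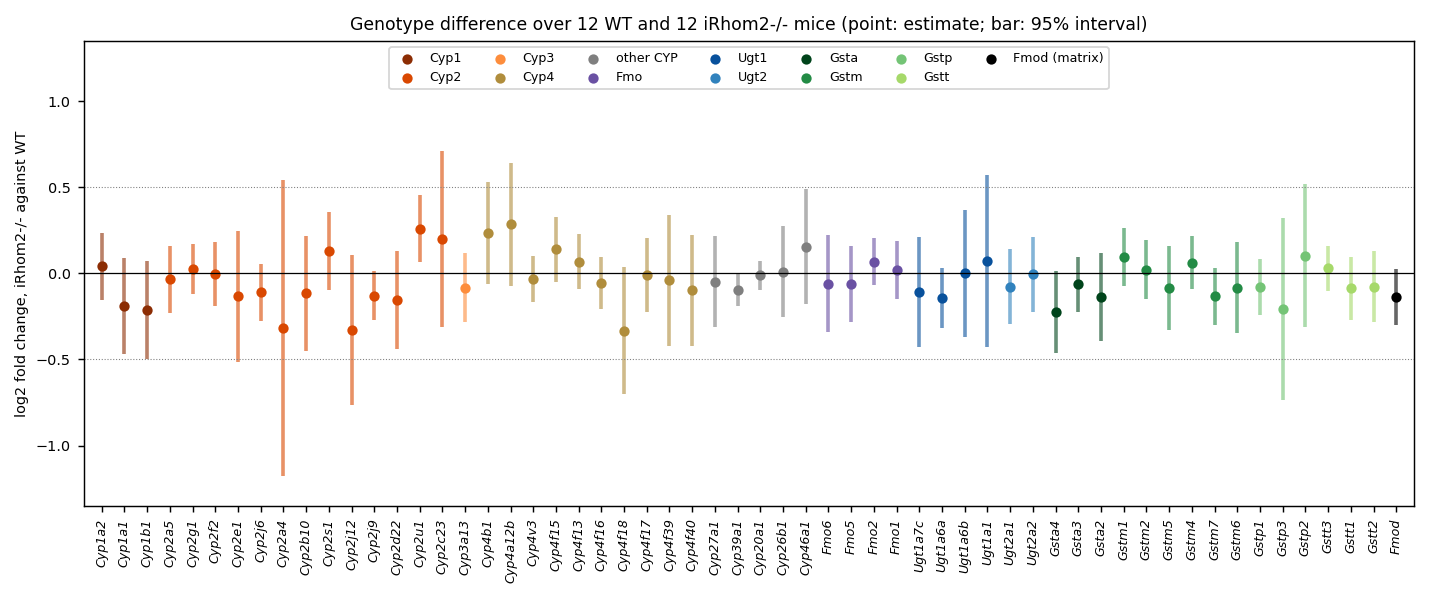
Log2FC of each of the 58 genes, *iRhom2-/-* against *WT*, over 24 mice, by family; points are estimates of edgeR with the set of mice as a term and bars are 95% intervals, with dotted lines at -0.5 and 0.5. Estimates run from -0.33 for *Cyp4f18* to 0.28 for *Cyp4a12b*, and intervals are widest for the low or variable genes such as *Cyp2a4*.

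By class, the median log2FC over 24 mice was -0.04 for the 32 cytochromes P450 (11 above 0), -0.02 for the 4 flavin-containing monooxygenases (2 above 0), -0.04 for the 6 UDP-glucuronosyltransferases (1 above 0) and -0.08 for the 15 glutathione S-transferases (5 above 0). No class held a gene past the threshold. *Fmod* was at -0.14 (adjusted p = 0.53 by edgeR). In bulk samples fewer cells of a type and less RNA per cell cannot be told apart, so these values describe the tissue and not the RNA of each cell.

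At 8 weeks, 1 of the 58 genes was higher in *iRhom2-/-* mice (3.24% of 19335 genes tested were) and 0 were lower (1.74% were), while DESeq2 called 2 higher, *Cyp2u1* and *Cyp4f15*, and 0 lower, against 11.4% of all genes in either direction. The higher gene was *Cyp2u1* (chromosome 3, 131288441 to 131303227, minus strand), a hydroxylase of long-chain fatty acids and a low member at 5.81 CPM on average. *Cyp2u1* was at 4.27, 4.56 and 5.19 CPM in the *WT* mice and at 6.83, 6.84 and 7.90 CPM in the *iRhom2-/-* mice. The groups did not overlap, and the log2FC was 0.60 ± 0.15 (SE), with an adjusted p of 0.094 by edgeR. The call was lost when any 1 of the 6 mice was left out (adjusted p = 0.117 to 0.303 by edgeR), with RLE scaling (0.106), which left 0 genes higher, and with sex as a term (0.165).

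*Cyp2u1* had the smallest p among the 58 genes over 24 mice as well, where it missed the threshold. There its log2FC was 0.26 ± 0.094 (SE), with an adjusted p of 0.223 by edgeR. In 10 of 12 *iRhom2-/-* mice it exceeded the mean of the *WT* mice of the same set. These values include the mice in which *Cyp2u1* was called, so they are not independent of that call. No share over all genes is given beside the count. In the sets without the call its log2FC was 0.10 at 10 weeks (adjusted p = 0.949 by edgeR). In the mice of 5 or 30 weeks it was 0.16 (adjusted p = 0.616 by edgeR).

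**Figure D3:**
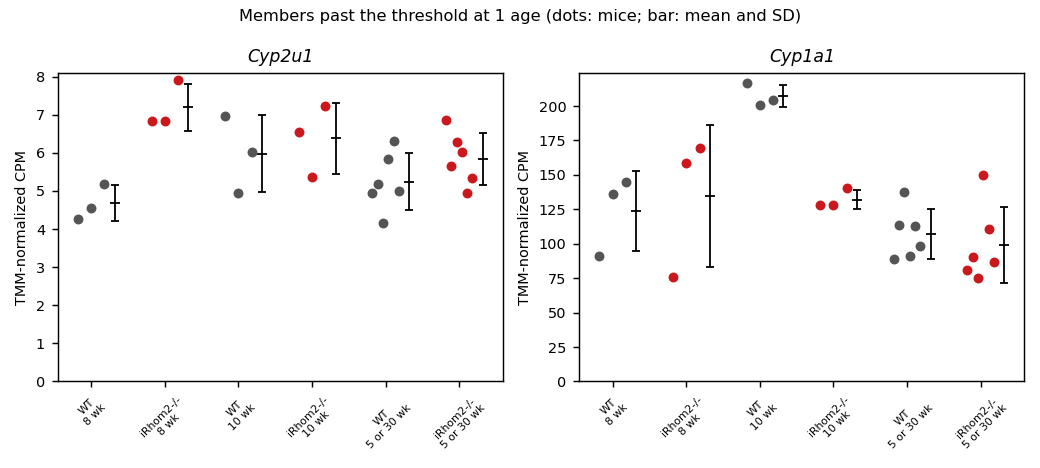
TMM-normalized CPM of *Cyp2u1* and *Cyp1a1* in each of 24 mice; dots are mice, grey for *WT* and red for *iRhom2-/-*, and bars give mean and SD of the group. The genotypes are separated for *Cyp2u1* at 8 weeks (6.83 to 7.90 against 4.27 to 5.19 CPM) and for *Cyp1a1* at 10 weeks (128 to 140.2 against 201 to 217 CPM), and overlap elsewhere.

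At 8 weeks 4 of the 58 genes had an unadjusted p under 0.05 (6.90%, against 19.8% of all genes). Every *iRhom2-/-* mouse lay above every *WT* mouse for 3 of 58 genes (5.17%, against 16.1% of genes tested), namely *Cyp2u1*, *Cyp4f15* and *Gstp1*, and below for 1 (1.72%, against 10.6%), *Cyp2j12*. No test was made of the shares. The median log2FC was 0.07, with 37 of 58 above 0. At the same age 4 of 9 markers of mature olfactory sensory neurons were higher in *iRhom2-/-* mice (median log2FC 0.53), their summed level being 10443 to 12802 CPM in *WT* and 15450 to 19614 CPM in *iRhom2-/-* mice, while all 8 macrophage and all 5 lymphocyte markers had a log2FC below 0 (medians -0.70 and -1.17, with 0 and 1 past the threshold). The summed level was 149 to 310.3 CPM in *WT* and 102 to 172 CPM in *iRhom2-/-* mice for macrophages, and 8.83 to 26.6 and 3.94 to 7.78 CPM for lymphocytes. All 4 respiratory secretory markers tested (median -0.80), all 3 erythrocyte markers (-0.30) and all 4 endothelium markers (-0.16) were below 0 too, with 0 past the threshold. The secretory markers summed to 4183 to 5297 CPM in *WT* and 801 to 4471 CPM in *iRhom2-/-* mice. The part of these cells in the values at 8 weeks was not tested.

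At 10 weeks, 1 gene was lower (0.112% of 18764 genes tested were) and 0 were higher (0.0853% were). It was *Cyp1a1* (chromosome 9, 57687928 to 57703824, plus strand), which oxidizes polycyclic aromatic hydrocarbons and is the textbook target of the aryl hydrocarbon receptor. *Cyp1a1* was at 201, 204 and 217 CPM in the 3 *WT* mice and at 128, 128 and 140.2 CPM in the 3 *iRhom2-/-* mice. The spread within each genotype was small and the groups stood clear of each other. The log2FC was -0.65 ± 0.10 (SE), with an adjusted p of 0.098 by edgeR. When any 1 of the 6 mice was left out the adjusted p by edgeR was 0.104 to 0.504, with the log2FC between -0.70 and -0.62, and with sex as a term it was 0.206. The value depended strongly on the test, being 8.3e-08 by DESeq2 and 0.012 by edgeR's likelihood ratio test. By edgeR's main test it was 0.097 with RLE scaling, 0.086 with no filter and 0.108 with a minimum of 10 counts. At an unadjusted p under 0.05 there were 9 genes (15.5%, against 7.79% of all genes), and DESeq2 also called *Cyp2j6* lower and *Cyp4b1* higher, where it called 1.54% of all genes in either direction.

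At the other ages *Cyp1a1* overlapped between genotypes. At 8 weeks it was at 90.9, 136 and 145 CPM in *WT* and 75.7, 159 and 169 CPM in *iRhom2-/-* mice (log2FC 0.10 ± 0.30 SE). In the mice of 5 or 30 weeks it was at 88.9, 106 and 138 CPM in *WT* (lowest, median and highest, n = 6) and at 74.8, 88.7 and 150.1 CPM in *iRhom2-/-* mice (n = 6), with a log2FC of -0.11. The genotype effects of *Cyp1a1* were not shown to differ between the sets (unadjusted p = 0.108, adjusted p = 0.475 by edgeR's joint interaction test).

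*Cyp1a1* and its neighbour *Cyp1a2* lie head to head, with 13958 bases between their RefSeq starts. *Cyp1a2* was at 892, 981 and 1016 CPM in *WT* and 820, 875 and 927 CPM in *iRhom2-/-* mice at 10 weeks, so its groups overlapped (log2FC -0.14, 95% interval -0.42 to 0.14). Their promoters were searched for GCGTG, the core bound by the aryl hydrocarbon receptor with its partner ARNT, on both strands (CACGC on the other). Here matches are in capitals:
Cyp1a1, chr9:57697363-57697662, plus strand: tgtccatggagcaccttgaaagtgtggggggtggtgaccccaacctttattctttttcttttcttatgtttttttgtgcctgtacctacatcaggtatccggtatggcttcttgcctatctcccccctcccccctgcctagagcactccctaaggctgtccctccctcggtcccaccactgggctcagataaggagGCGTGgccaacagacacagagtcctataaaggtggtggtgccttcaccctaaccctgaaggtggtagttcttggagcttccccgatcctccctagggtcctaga
Cyp1a2, chr9:57683606-57683905, minus strand: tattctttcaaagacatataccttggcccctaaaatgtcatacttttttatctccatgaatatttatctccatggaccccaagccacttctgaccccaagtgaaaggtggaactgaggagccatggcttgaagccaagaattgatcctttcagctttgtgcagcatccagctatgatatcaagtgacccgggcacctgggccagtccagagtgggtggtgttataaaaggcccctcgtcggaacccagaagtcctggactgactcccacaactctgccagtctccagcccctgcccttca

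The window of *Cyp1a1* holds 1 match and that of *Cyp1a2* holds none, which says only that these letters are not in this window. Of the 58 genes 47 had a promoter in the RefSeq table, and 15 of these (31.9%) held GCGTG on either strand, against 32.5% of 27025 promoters of the same length. TGACNNNGC, the core of the antioxidant response element bound by NRF2, was in 5 (10.6%), against 12.5% of all. Neither motif contains the other, and a match is a description and not a binding site.

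Of the receptor's own genes, *Ahr* had a log2FC of -0.33 at 10 weeks (adjusted p = 0.697 by edgeR) and *Tiparp*, a target that dampens the receptor, -0.31 (adjusted p = 0.715 by edgeR). Neither passed. *Ahrr*, its repressor, was near the floor at 0.128 to 0.958 CPM. *Cyp1b1*, the remaining Cyp1 gene of the group, also had GCGTG in its promoter and went the other way. Its log2FC at 10 weeks was 0.23 (adjusted p = 0.896 by edgeR), which did not pass either.

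At 10 weeks 8 of 58 genes (13.8%, against 6.44% of genes tested) lay below in every *iRhom2-/-* mouse, namely *Cyp1a1*, *Cyp2f2*, *Cyp2g1*, *Cyp2j6*, *Cyp2j9*, *Cyp2j12*, *Cyp39a1* and *Ugt2a1*. Another 5 (8.62%, against 6.76%) lay above, namely *Cyp2b10*, *Cyp4a12b*, *Cyp4b1*, *Fmo1* and *Gstm1*. The median log2FC was -0.09, with 23 of 58 above 0, beside 0.0068 over all genes. *Ugt2a1* was at 4288, 4949 and 5592 CPM in *WT* and 3185, 4051 and 4237 CPM in *iRhom2-/-* mice (log2FC -0.37, adjusted p = 0.692 by edgeR), and the log2FC of *Gstm1* was 0.29 (adjusted p = 0.695 by edgeR). Neither passed the threshold.

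The summed level of the 58 genes at 10 weeks was 36493 to 40310 CPM in *WT* and 33175 to 34415 CPM in *iRhom2-/-* mice, without overlap. At 8 weeks it was 19664 to 24204 CPM in *WT* and 20454 to 27841 CPM in *iRhom2-/-* mice, and in the mice of 5 or 30 weeks 18844 to 25566 CPM in *WT* and 16565 to 27091 CPM in *iRhom2-/-* mice, with overlap in both. At 10 weeks 5 of 6 Bowman's gland markers (median log2FC -0.16) and 8 of 9 markers of mature olfactory sensory neurons (-0.19) were below 0, with 0 past the threshold, and 4 of 8 sustentacular markers were (-0.01). The Bowman's gland markers summed to 8126 to 14015 CPM in *WT* and 8502 to 12797 CPM in *iRhom2-/-* mice, and those of mature neurons to 15657 to 20205 and 13866 to 18640 CPM. In the other direction, all 5 stroma and bone markers, all 5 neutrophil markers, all 3 erythrocyte markers and all 7 markers of respiratory ciliated cells had a log2FC above 0 (medians 0.45, 0.90, 1.14 and 0.30), with 0 past the threshold. The summed level of the stroma and bone markers was 2989 to 3546 CPM in *WT* and 4413 to 5954 CPM in *iRhom2-/-* mice, that of the neutrophil markers 94.5 to 139 and 124 to 315 CPM, and that of the ciliated cell markers 328 to 411 and 357 to 509.9 CPM. For erythrocyte markers it was 437 to 1034 CPM in *WT* and 352 to 3982 CPM in *iRhom2-/-* mice. All 4 endothelium markers and all 7 markers of immature olfactory sensory neurons were also above 0 (medians 0.15 and 0.20), with 0 past the threshold. The part of these cells in the values at 10 weeks was not tested.

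**Figure D4:**
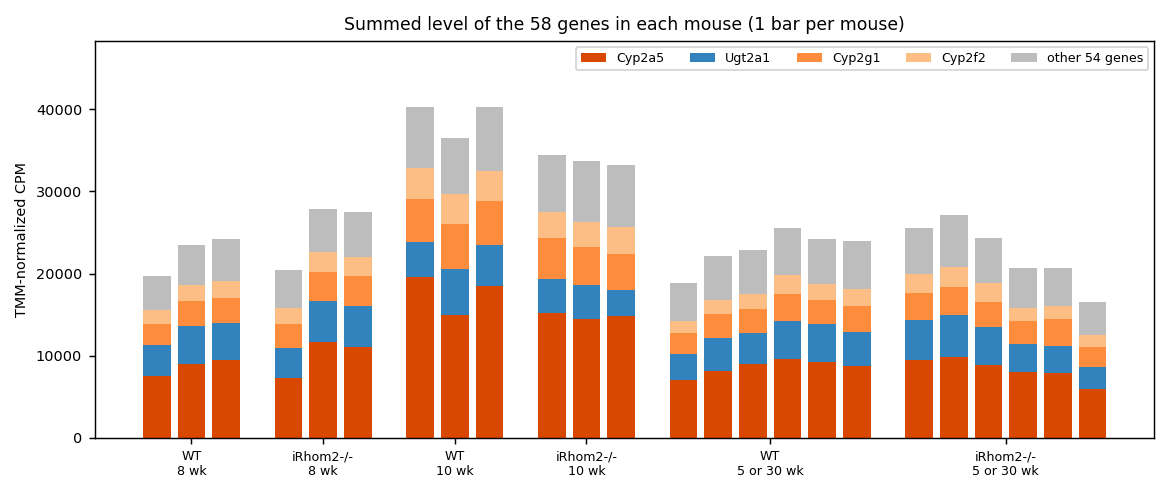
Summed TMM-normalized CPM of the 58 genes in each of 24 mice, 1 bar per mouse, split into *Cyp2a5*, *Ugt2a1*, *Cyp2g1*, *Cyp2f2* and the other 54 genes. The bars of 10 weeks are the tallest, at 36493 to 40310 CPM in *WT* and 33175 to 34415 CPM in *iRhom2-/-* mice.

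In the mice of 5 or 30 weeks 0 of 58 genes passed higher (0.649% of 18481 genes tested) and 0 lower (0.422%), and for all 58 the genotypes overlapped, where 0.996% of genes tested lay wholly above and 0.666% wholly below. At an unadjusted p under 0.05 there were 5 genes (8.62%, against 14.2% of all genes), and DESeq2 called 1, *Gsta4*, against 4.96% of all genes. The median log2FC was -0.06, with 19 of 58 above 0. *Gsta4*, which conjugates the lipid peroxidation product 4-hydroxynonenal, had the smallest p. It was at 171, 217 and 309 CPM in *WT* (lowest, median and highest, n = 6) and 116, 159 and 185 CPM in *iRhom2-/-* mice (n = 6), and the groups overlapped only between 171 and 185 CPM. Its log2FC was -0.54 ± 0.15 (SE), with an adjusted p of 0.16 by edgeR. By column, whose ages are not given, *Gsta4* was at 177, 193 and 171 CPM in *WT* 7 to 9 and 253, 241 and 309 CPM in *WT* 10 to 12, and at 158, 185 and 169 CPM in *iRhom2-/-* 7 to 9 and 159, 135 and 116 CPM in *iRhom2-/-* 10 to 12. The 3 highest values were those of *WT* columns 10 to 12.

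In the same mice all 5 lymphocyte markers (median log2FC -1.06), all 8 macrophage markers (-0.25), all 5 neutrophil markers (-0.16), all 3 erythrocyte markers (-0.30) and all 4 endothelium markers (-0.20) were below 0, with 0 past the threshold. The lymphocyte markers summed to 9.11 to 15.1 CPM in *WT* and 2.99 to 9.88 CPM in *iRhom2-/-* mice, and the macrophage markers to 148 to 219 and 129 to 164 CPM. Of the markers of sustentacular cells 3 of 8 (median 0.11) were below 0, and of those of Bowman's glands 4 of 6 (-0.03). The part of any of these cells in the values at 5 or 30 weeks was not tested. The genes described here were selected on symbol and level, and which cells express each of them was not tested.

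No gene of the 58 had a genotype effect that differed between the 3 sets past an adjusted p of 0.1 (0 of 58, against 0.0482% of 20763 genes; DESeq2 0, against 2.39%). At an unadjusted p under 0.05 there were 4 by edgeR (6.90%, against 12.7% of all genes) and 7 by DESeq2 (12.1%, against 14.5%). The smallest p belonged to *Gsta4* (unadjusted p = 0.013, adjusted p = 0.285 by edgeR), whose log2FC was 0.07 at 8 weeks, 0.10 at 10 weeks and -0.54 in the mice of 5 or 30 weeks. *Cyp2j9*, which oxidizes arachidonic acid, came next (unadjusted p = 0.035, adjusted p = 0.360 by edgeR), with 0.07, -0.39 and -0.10. *Cyp4f18*, which hydroxylates leukotriene B4, followed (unadjusted p = 0.036, adjusted p = 0.365 by edgeR), with -0.79, 0.41 and -0.47.

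**Figure D5:**
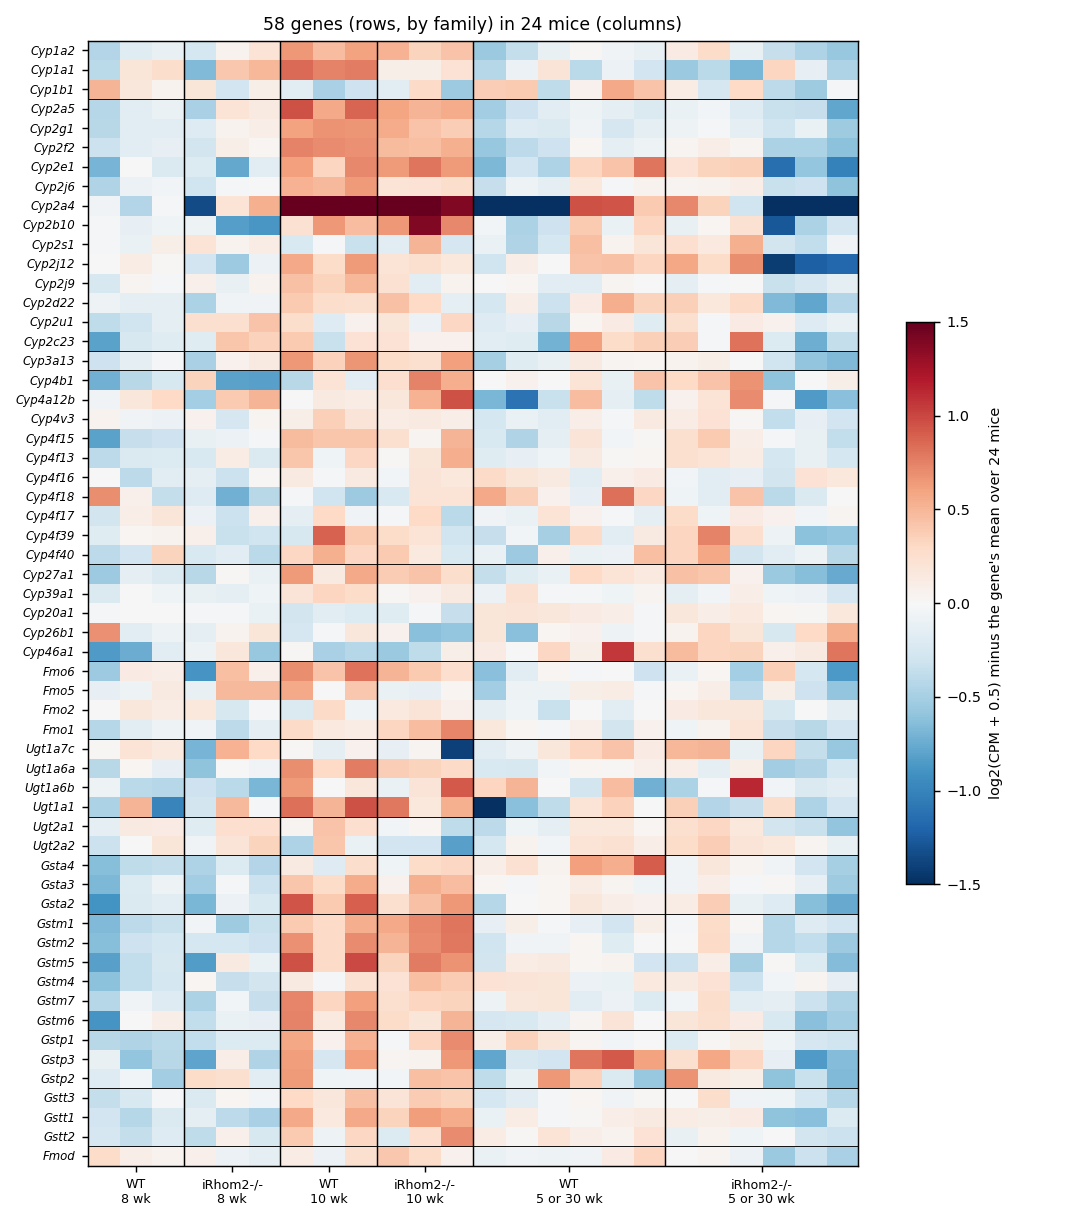
Each of the 58 genes (rows, by family) in each of 24 mice (columns, by group); colour is log2(CPM + 0.5) minus the gene's own mean over 24 mice, capped at 1.5 either way. In *WT* 49 of 58 rows have a higher mean at 10 than at 8 weeks, and *Cyp2a4* goes furthest, from 16.5 CPM in *WT* of 8 weeks to 82.5 CPM in *WT* of 10 weeks.

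The levels also differed between the sets of mice. In *WT* mice 49 of the 58 genes had a higher mean at 10 than at 8 weeks and 9 a lower one, with a median log2 difference of 0.54, and *Cyp2a5* was at 7488, 8999 and 9428 CPM at 8 weeks and 14978, 18481 and 19543 CPM at 10 weeks. These groups did not overlap. The genes took 1.86% to 2.54% of all counts in *WT* at 8 weeks, 3.35% to 3.77% at 10 weeks and 1.87% to 2.57% in the mice of 5 or 30 weeks. The summed Bowman's gland markers were 4968 ± 465 CPM (SD, n = 3) and 11112 ± 2945 CPM (SD, n = 3) in *WT* of 8 and 10 weeks, and those of sustentacular cells 5390 ± 631 CPM (SD, n = 3) and 6757 ± 374 CPM (SD, n = 3). The part of these in the levels was not tested.

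Besides *Cyp2a4*, the largest ratio between the highest and the lowest *WT* set mean was 2.35 for *Gstm5*, and 6 genes reached a ratio of 2, the median being 1.55. *Cyp2a4* was at 13.4, 17.8 and 18.2 CPM in *WT* at 8 weeks and 65.6, 87.1 and 94.9 CPM in *WT* at 10 weeks, a ratio of 5.01 between the highest and lowest set means. In *iRhom2-/-* mice it was at 6.99, 21.4 and 26.9 CPM at 8 weeks and 49.1, 61.0 and 68.4 CPM at 10 weeks, so that the genotypes overlapped at both ages.

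The wider pathway supplies these enzymes with electrons and cofactors, regulates them and exports their products. Of 60 genes listed for it, 59 were tested over 24 mice and 0 passed in either direction (4 or 6.78% at an unadjusted p under 0.05, against 12.4% of all genes, median log2FC -0.04, 22 above 0). At 8 weeks 1 passed in each direction, against 3.24% higher and 1.74% lower of all genes, and 12 had an unadjusted p under 0.05 by edgeR (20.3%, against 19.8%). *Cyb5r3*, a reductase that passes electrons to cytochrome b5, was lower (log2FC -0.60, adjusted p = 0.020 by edgeR), and *Nfe2l2*, which encodes NRF2, was higher (0.34, adjusted p = 0.097 by edgeR). At 10 weeks and in the mice of 5 or 30 weeks 58 were tested and 0 passed (by edgeR at an unadjusted p under 0.05, 8 or 13.8% at 10 weeks, against 7.79% of all genes, and 7 or 12.1% at 5 or 30 weeks, against 14.2%). *Por*, the reductase that supplies electrons to cytochromes P450, was at 0.01 over 24 mice (SE 0.086).

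By role, the medians over 24 mice were -0.07 for the 5 electron donors (2 above 0), -0.08 for the 19 other enzymes of oxidation, reduction and hydrolysis (4 above 0), -0.03 for the 16 other conjugating enzymes (7 above 0), -0.02 for the 4 genes of glutathione supply (1 above 0), -0.11 for the 10 regulators tested (4 above 0) and 0.09 for the 5 efflux transporters (4 above 0).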

How the data were processed

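Main olfactory epithelium RNA (poly(A) selected, directional libraries) was sequenced from 24 mice. The authors aligned the reads with STAR against GRCm38 and estimated counts per gene with RSEM, and these estimated counts, unnormalized and whole, are what the deposited table holds. How they were rounded and the strand setting, are not given in the sources used here. Columns with the authors' own log2 fold changes, p-values and FDR were not used. Columns were tied to mice by name, and 12 columns, 6 per genotype, only to a group of 5 or 30 weeks.

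Genotypes were compared in R 4.3.3 with edgeR 4.0.16 (filterByExpr, TMM scaling, quasi-likelihood test, Benjamini-Hochberg adjustment over all genes tested, threshold 0.1), with the set of mice as a term over 24 mice and in each set alone. Each library is a separate mouse. CPM values by mouse are TMM-normalized, but the 58 genes were selected on unscaled CPM, and levels per kilobase of exon are also unscaled. Exon lengths, coordinates and coding sequences are from GENCODE for GRCm38. Percent shares and fold changes were computed here. The fits were tested on simulated data.

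A gene that met the rule is not reported here and is in none of the counts over the group. The genes and lists were chosen with earlier results of these data known. Genes named with values are the 10 highest per kilobase, those past 0.1 in any comparison, the 3 smallest interaction p, pairs over 95% identical in protein, the 2 nearest the 1 CPM limit on each side, the 3 most variable in *WT*, and the top of each family. Of the wider pathway, up to 3 past the threshold in each direction over 24 mice were to be named, and there were 0. *Cyp39a1*, *Cyp1b1*, *Cyp2j6*, *Cyp2j12*, *Cyp2e1*, *Cyp4b1*, *Cyp4a12b*, *Cyp4f15*, *Cyp2b10*, *Cyp20a1*, *Fmo1*, *Fmo5*, *Fmod* and the single pathway genes were picked with their values in view. Alternatives were DESeq2 1.42.0, edgeR's likelihood ratio test, RLE scaling, other filters, a threshold of 0.05, a replicate block, sex as a term, male mice only, no set term, and leaving out each mouse.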

Additional observations from a re-analysis of the deposited data

Results flagged for a closer look

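Among the named genes, 56 groups of 6 mice were searched for a single value far from the others, and 1 was found. The limit used flags about 1 group in 20 by chance if all 6 values come from 1 distribution. These groups hold mice of 5 or 30 weeks and the same mice recur for each gene, so that rate need not hold. The 1 value found is therefore not weighed against chance and not read as a result. *Ugt1a6b* was at 12.6 CPM in *iRhom2-/-* column 9 of the mice of 5 or 30 weeks, and at 3.82 to 5.38 CPM in the other 5.

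For 3 of the 28 named genes every *iRhom2-/-* mouse lay above the *WT* mean in one set and below it in another. No share over all genes is given beside this count, so it does not set these genes apart. The log2 fold change of *Cyp4f18* was -0.79 at 8 weeks and 0.41 at 10 weeks, and that of *Cyp2g1* 0.22 and -0.19. That of *Gstp1* was 0.14 at 8 weeks and -0.21 in the mice of 5 or 30 weeks. By edgeR's joint interaction test over the 3 sets none of the 3 passed (unadjusted p = 0.036 for *Cyp4f18*, 0.081 for *Cyp2g1* and 0.132 for *Gstp1*).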

How the results depend on the processing

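Over 24 mice, 0 genes higher and 0 lower held under every alternative run, and 0 differed between sets under every alternative of that test, DESeq2 and the mice of 8 and 10 weeks alone included. At 8 weeks the count of genes higher, 1, became 2 with DESeq2 and 0 at a threshold of 0.05, with the likelihood ratio test, RLE scaling, no filter, a minimum of 10 counts, sex as a term and male mice only, and 0 to 1 without a mouse (the 1 then being *Fmo5*, without *iRhom2-/-* replicate 1). The count lower, 0, was 0 to 1 without a mouse (1 without *iRhom2-/-* replicate 1, *Cyp2b10*). At 10 weeks the count higher, 0, became 1 with DESeq2, and the count lower, 1, became 2 with DESeq2 and 0 at a threshold of 0.05, with a minimum of 10 counts, the replicate block, sex as a term, male mice only and without any of the 6 mice. In the mice of 5 or 30 weeks the count lower, 0, became 1 with DESeq2 and with the likelihood ratio test (*Gsta4*). No log2 fold change of a called gene turned. Whether the replicate numbers pair the mice was not settled. Correlations of deviations from the group mean ran from -0.015 to 0.27 for mice of the same number and from -0.36 to 0.22 for others. With the number as a replicate block the adjusted p by edgeR was 0.093 for *Cyp2u1* at 8 weeks and 0.267 for *Cyp1a1* at 10 weeks. With 0.5 or 2 CPM as the limit there would be 65 or 56 genes. Over all genes DESeq2 called 823 against 410 over 24 mice, 2195 against 962 at 8 weeks, 289 against 37 at 10 weeks, 916 against 198 at 5 or 30 weeks and 496 against 10 between sets. With 3 mice per group, 95% intervals had a median half-width of 0.38 at 8 weeks and 0.36 at 10 weeks on the log2 scale, against 0.22 over 24 mice.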

Other observations

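In the mice of 5 or 30 weeks, whose columns carry no age, *Cyp2a4* fell into 2 separate ranges within each genotype. In *WT* columns 7 to 9 it was at 3.76, 3.6 and 5.19 CPM, and in columns 10 to 12 at 36.2, 36.0 and 24.4 CPM. In *iRhom2-/-* columns 7 to 9 it was at 30.7, 23.5 and 14.8 CPM, and in columns 10 to 12 at 3.58, 2.66 and 3.23 CPM. *Cyp2e1*, the ethanol-oxidizing P450, was at 85.9, 112 and 99.4 CPM in *WT* columns 7 to 9 and 173, 185 and 241 CPM in columns 10 to 12. In *iRhom2-/-* columns 7 to 9 it was at 160, 173 and 176 CPM, and in columns 10 to 12 at 62.7, 91.4 and 67.7 CPM. *Cyp2j12* in *WT* columns was at 6.04, 8.10 and 7.54 CPM in 7 to 9 and at 10.4, 10.5 and 9.54 CPM in 10 to 12. In *iRhom2-/-* columns it was at 11.5, 9.28 and 12.6 CPM in 7 to 9 and at 2.49, 2.94 and 3.06 CPM in 10 to 12. These genes were picked after their values were seen and no test was made.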
